A study of Mus musculus with 6 samples.

Results

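The genes of the zinc-dependent histone deacetylases of class I and class II were examined for H3K27ac, the acetylation of histone H3 at lysine 27, in the vehicle-treated Control mouse embryonic stem cells (mESCs). The 10 genes were chosen by name from 27706 annotated protein-coding and lincRNA genes. Class I holds 4 of them (Hdac1, Hdac2, Hdac3 and Hdac8), class IIa holds 4 (Hdac4, Hdac5, Hdac7 and Hdac9) and class IIb holds 2 (Hdac6 and Hdac10). For each gene, peaks were sought within 1 kb of the transcription start site (TSS) of any protein-coding isoform, elsewhere in the gene, and within 50 kb of either gene end.

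H3K27ac was profiled by chromatin immunoprecipitation and sequencing (ChIP-seq) in mESCs of the line E14Tg2A carrying Rosa26-Cre and Oct4-IRES-Puro alleles, grown in N2B27 medium with LIF, the MEK inhibitor PD0325901 and the GSK3 inhibitor CT-99021. Control cells received DMSO, and the other groups were treated for 120 min with 100 nM NVP-2, which inhibits the transcription kinase CDK9, or with actinomycin D (ActD), which binds DNA and is labelled as 800 nM. Each of the 3 groups had 2 samples, chromatin of the human line HEK293T was added as a spike-in, and all groups are this 1 cell line. The values analysed here are the positions of 22973 Control peaks in mm10, 1 list pooled over both Control samples, so no treated sample enters and there is no replicate error. The list gives no peak height and no read depth: a gene without a peak here has none in the list, and how close its signal came to the threshold of the peak caller cannot be read. As a check of the labelled cell type, the list held a promoter peak at 7 of 7 embryonic stem cell markers and at 3 of 12 markers of other cell types (Gata4, Gata6 and Twist1).

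Histone deacetylases remove acetyl groups from lysines and so reverse the work of acetyltransferases such as p300 and CBP, which place H3K27ac at active promoters and enhancers. Class I enzymes are mostly nuclear and work as catalytic subunits of corepressor complexes. Class IIa enzymes have weak catalytic activity of their own, shuttle between nucleus and cytoplasm under the control of kinases and 14-3-3 proteins, and bind MEF2 transcription factors. Class IIb enzymes act largely outside the nucleus.

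The promoter sequences below show what the marked and unmarked starts of these genes look like, and 6 of them were chosen to set a marked and an unmarked gene of class I, a marked and an unmarked gene of class IIa, and the inner and outer starts of Hdac7 side by side. Each is 300 bases from RefSeq (GRCm38.p6), 5′ to 3′ along the gene, from 250 bases before the start to 50 bases after it. Capitals mark a GC box (GGGCGG, or CCGCCC on the other strand) or a CCAAT box (CCAAT, or ATTGG on the other strand), and both strands were searched. The windows of Hdac2, Hdac4 and the inner start of Hdac7 lay wholly inside a Control peak. Those of Hdac8, Hdac9 and the outer start of Hdac7 touched none.
Hdac2, chr10:36974294-36974593, plus strand: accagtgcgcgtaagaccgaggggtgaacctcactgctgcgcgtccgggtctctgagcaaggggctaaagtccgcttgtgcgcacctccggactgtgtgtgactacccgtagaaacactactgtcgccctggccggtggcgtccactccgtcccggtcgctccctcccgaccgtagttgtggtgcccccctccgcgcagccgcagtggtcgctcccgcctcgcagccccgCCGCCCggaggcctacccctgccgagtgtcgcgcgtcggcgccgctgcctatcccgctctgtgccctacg
Hdac8, chrX:102505109-102505408, minus strand: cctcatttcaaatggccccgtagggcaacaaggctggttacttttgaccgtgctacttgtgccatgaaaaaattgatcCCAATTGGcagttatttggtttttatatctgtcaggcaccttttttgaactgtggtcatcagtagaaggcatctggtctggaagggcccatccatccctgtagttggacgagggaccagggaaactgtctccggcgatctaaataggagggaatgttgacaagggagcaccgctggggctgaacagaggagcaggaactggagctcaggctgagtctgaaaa
Hdac4, chr1:92180292-92180591, minus strand: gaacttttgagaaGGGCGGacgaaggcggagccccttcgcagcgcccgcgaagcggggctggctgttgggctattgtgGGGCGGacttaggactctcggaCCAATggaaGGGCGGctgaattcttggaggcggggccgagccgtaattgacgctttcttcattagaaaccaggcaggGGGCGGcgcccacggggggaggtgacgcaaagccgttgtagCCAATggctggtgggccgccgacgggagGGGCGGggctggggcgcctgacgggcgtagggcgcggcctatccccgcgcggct
Hdac7 inner start, chr15:97831446-97831745, minus strand: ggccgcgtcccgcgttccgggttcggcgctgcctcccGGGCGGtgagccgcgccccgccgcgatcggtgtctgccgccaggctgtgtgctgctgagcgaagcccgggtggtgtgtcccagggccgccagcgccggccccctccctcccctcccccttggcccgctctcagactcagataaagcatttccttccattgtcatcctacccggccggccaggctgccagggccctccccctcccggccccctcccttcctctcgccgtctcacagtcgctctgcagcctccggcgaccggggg
Hdac7 outer start, chr15:97844453-97844752, minus strand: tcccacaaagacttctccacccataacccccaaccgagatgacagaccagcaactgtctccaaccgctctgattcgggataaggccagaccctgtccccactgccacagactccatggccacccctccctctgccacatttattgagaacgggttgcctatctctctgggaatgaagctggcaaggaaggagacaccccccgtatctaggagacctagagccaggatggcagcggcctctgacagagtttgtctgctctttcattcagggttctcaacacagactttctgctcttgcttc
Hdac9, chr12:34528840-34529139, minus strand: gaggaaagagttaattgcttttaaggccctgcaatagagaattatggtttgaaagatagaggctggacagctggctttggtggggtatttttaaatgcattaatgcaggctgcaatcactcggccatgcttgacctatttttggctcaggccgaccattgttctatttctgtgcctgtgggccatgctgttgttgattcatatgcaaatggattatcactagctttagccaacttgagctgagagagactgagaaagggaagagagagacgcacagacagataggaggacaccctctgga

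At the inner start of Hdac7 printed here the window held 31 CpG dinucleotides and 1 GC box. The window of a second inner start, at 97831767 in the same peak, held 35 CpGs and neither box, and that of the outer start held 6 CpGs and neither box. The Hdac4 window held 5 GC boxes, 2 CCAAT boxes and 32 CpGs, and the Hdac9 window held neither box and 3 CpGs. In class I, the Hdac2 window had 36 CpGs and 1 GC box, and the Hdac8 window, whose RefSeq start lies 201 bp from the TSS used for the peaks, had 6 CpGs and 2 CCAAT matches that overlap each other. The RefSeq promoter table used here gave 11 entries for 7 of the genes. Any entry on chromosome 18, where the marked gene Hdac3 lies, was left out of these, but not of the shares over all RefSeq promoters. Of the 6 entries that overlapped a peak, 5 held a GC box, the exception being the second inner start of Hdac7, and of the 5 entries without a peak none did. Across all 32851 RefSeq promoters a GC box was present in 35.7% and a CCAAT box in 37.4%. The GC box was present in 64.5% of the 12135 RefSeq promoters with a peak and in 18.8% of the 20716 without, and the CCAAT box in 37.2% and 37.5%. A match is a run of letters and not a site known to be bound.

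H3K27ac marked the promoter of 7 of the 10 deacetylase genes: Hdac1, Hdac2 and Hdac3 in class I, Hdac4, Hdac5 and Hdac7 in class IIa, and Hdac6 in class IIb. The promoters of Hdac8, Hdac9 and Hdac10 carried no peak. The share was 70.0% (95% Wilson interval 39.7 to 89.2%), against 43.6% of all protein-coding and lincRNA genes and 51.0% of the 21853 protein-coding genes, and the interval holds both shares. Class I had 3 of 4 genes marked (75.0%, 30.1 to 95.4%) and class II had 4 of 6 (66.7%, 30.0 to 90.3%). The difference of 8.33 percentage points had a 95% Newcombe interval of -42.4 to 50.3 points (two-sided Fisher exact test, p = 1.0). With 7 of 10 genes marked the smallest p this test can give is 0.0333, and the wide interval leaves large differences in either direction possible. The intervals cover counting error over genes only. With the longest isoform alone the difference was 25.0 points, since Hdac7 lost its mark, on the autosomes alone it was 40.0 points, and with class IIa in place of all class II it was 0.0.

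**Figure D1:**
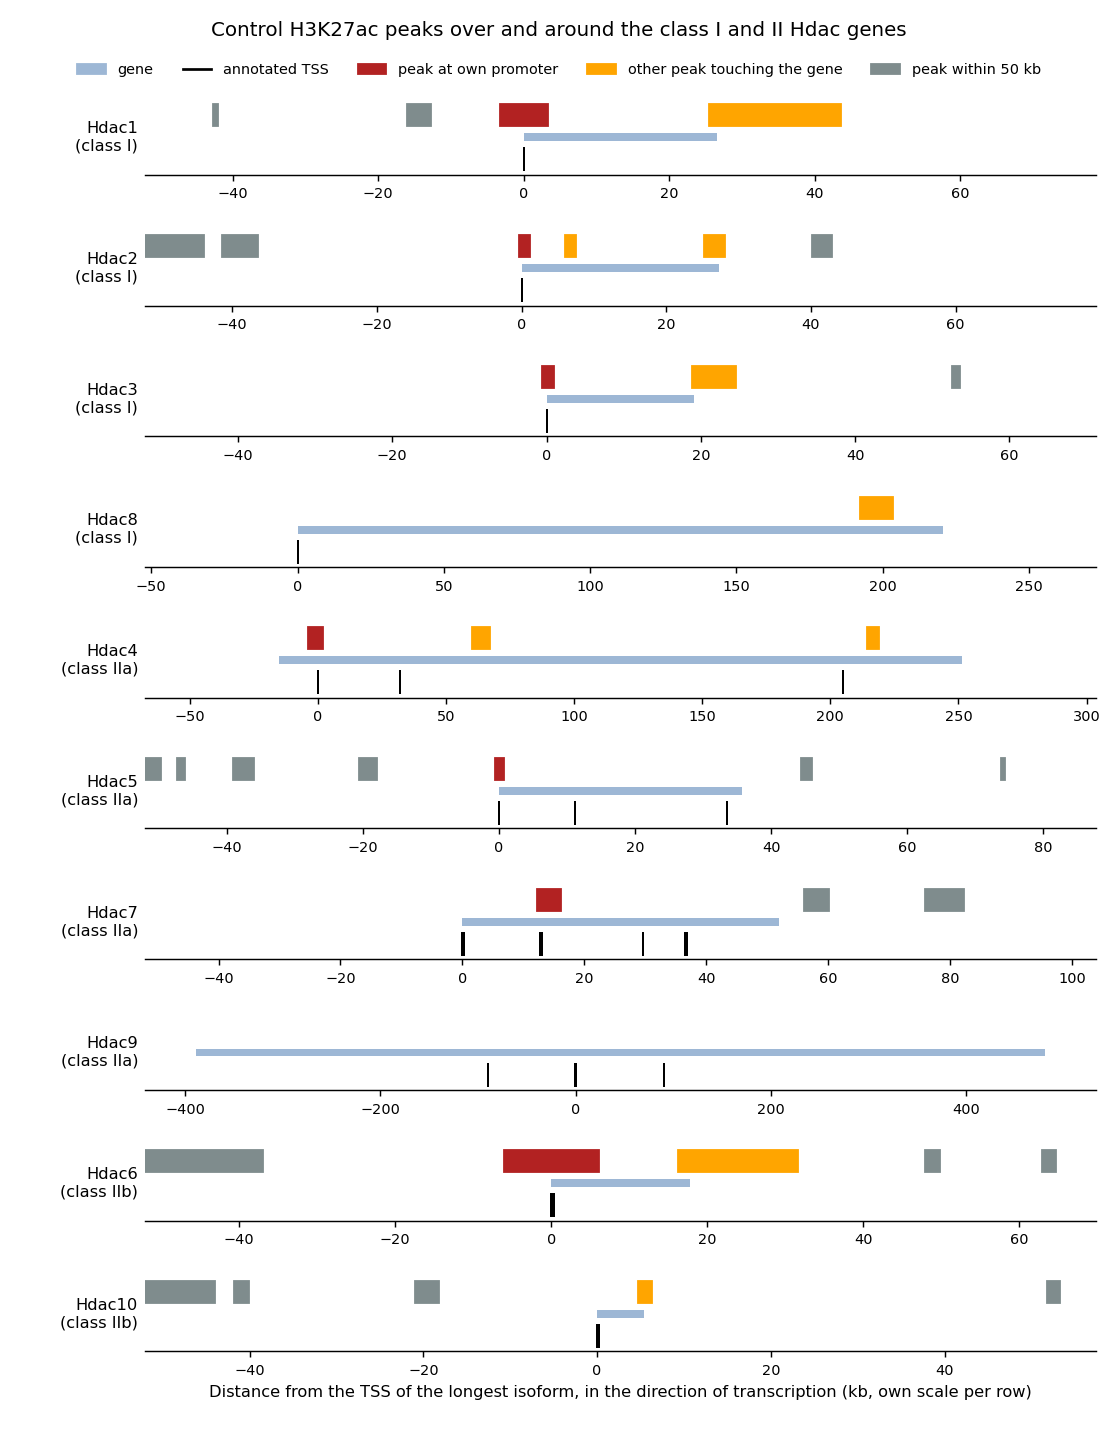
Each row is 1 gene, drawn from left to right in its direction of transcription, with distance from the TSS of the longest isoform in kb on its own scale. Blue bars are genes, black ticks annotated TSSs, red boxes peaks at the gene's own promoters, orange boxes other peaks touching the gene and grey boxes peaks within 50 kb. Hdac9 is the row with no box, and the only box of Hdac8 lies 192 kb past its TSS.

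Class II genes had more annotated starts than class I genes, most of them unmarked. Class I genes had 5 isoforms with 5 distinct TSSs, of which 4 were marked. Class II genes had 36 isoforms with 29 distinct TSSs, of which 11 were marked. Where TSSs with overlapping windows are joined into promoter regions, class I had 4 regions with 3 marked and class II had 15 with 4 marked. Over all protein-coding genes 49.7% of 54366 distinct TSSs and 39.7% of 30935 regions had a peak. Each of the 7 marked genes thus had exactly 1 marked region, and the additional regions of Hdac4, Hdac5 and Hdac7 had no peak. TSSs of the same region share their windows, so no test was made over them and no difference between the classes is read from these counts.

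In class I, Hdac1 and Hdac2 are paralogous catalytic subunits of the SIN3, NuRD and CoREST complexes. Hdac1 (ENSMUSG00000028800.15, chr4:129516104-129542713, minus strand) had 1 protein-coding isoform. Its promoter peak, chr4:129539361-129545929, was 6569 bp wide and reached 3216 bp upstream and 3352 bp downstream of the TSS, over the first exon and the start of intron 1. This peak filled the whole promoter window and was wider than 83.1% of all promoter peaks. At the other end of the gene, an 18104 bp peak covered the last 1153 bp, with exons 13 to 14 of 14, and extended beyond the gene over the promoter of Marcksl1. The nearest peak outside the gene lay 12.7 kb upstream at the promoter of Lck, and the next lay 42.0 kb upstream. Peaks covered 16.9% of Hdac1.

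Hdac2 (ENSMUSG00000019777.16, chr10:36974544-37001889, plus strand) had a far narrower promoter peak. It spanned chr10:36974125-36975752, or 1628 bp, with 419 bp upstream and 1208 bp downstream of the first TSS, and was wider than 29.5% of promoter peaks. Hdac2 had 2 further peaks of its own: 1475 bp inside intron 1, and 2936 bp over exons 13 to 14 of 14 at the 3′ end. None of its 3 flanking peaks overlapped a promoter of another gene. These lay 43.9 kb upstream (8498 bp wide), 36.4 kb upstream (4991 bp) and 12.8 kb downstream (2735 bp). The nearest other TSS, that of Marcks, lay 164 kb away. With 6 peaks within 50 kb, Hdac2 was above 85.2% of protein-coding genes, whose median was 2 (quartiles 1 and 4).

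Hdac3, the catalytic subunit of the NCoR and SMRT complexes (ENSMUSG00000024454.16, chr18:37935844-37955016, minus strand), had a promoter peak of 1526 bp at chr18:37954103-37955628, wider than 25.9% of promoter peaks. It shared this peak with Rell2, which starts on the opposite strand 123 bp away, so the peak cannot be assigned to either gene alone. Hdac3 was the only one of the 7 marked genes whose promoter peak overlapped the promoter window of another gene. A second peak of 5630 bp overlapped the last 294 bp of the gene and lay at the promoter of Diaph1. The only flanking peak, 1049 bp wide, lay 33.4 kb downstream.

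Hdac8, which deacetylates the cohesin subunit SMC3 and is X-linked (ENSMUSG00000067567.12, chrX:102284639-102505359, minus strand), stood apart from the other class I genes. No peak lay at its single TSS, and the nearest was 192 kb away, inside the gene itself. That peak, chrX:102301800-102313018, was 11219 bp wide, covered exon 10 of 11, overlapped no promoter of another gene and was wider than 91.8% of all promoter peaks and than 71.5% of those on X. Upstream of it no peak was listed for 0.816 Mb, a gap that holds the Hdac8 promoter, most of the gene and 10 other whole protein-coding genes. This gap ranked 589th in length among 22952 gaps between neighbouring peaks. Of 948 protein-coding genes on X, 32.0% had a promoter peak (29.1 to 35.0%), below the share among all protein-coding genes (95% interval 50.4 to 51.7%).

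**Figure D2:**
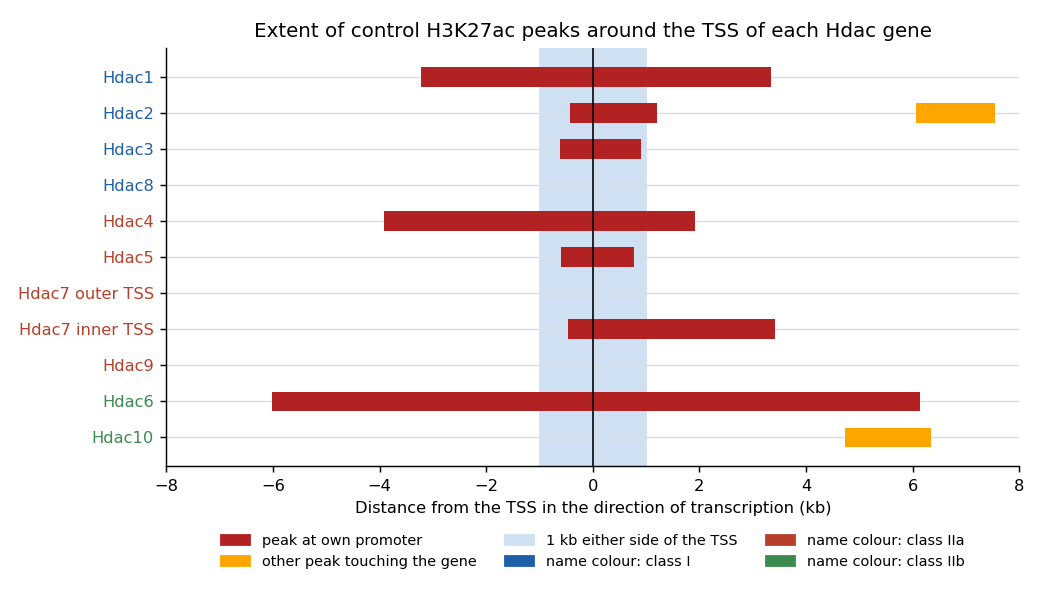
The horizontal axis gives the distance in kb from the TSS of the longest isoform, positive in the direction of transcription, and each row is 1 gene, with Hdac7 drawn at both its outer and its inner TSS. Bars are Control peaks, and the shaded band is the promoter window of 1 kb on either side. The peaks of Hdac1, Hdac4 and Hdac6 reach past both edges of the band, while those of Hdac3 and Hdac5 stay inside it.

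In class IIa, Hdac4 (ENSMUSG00000026313.16, chr1:91928779-92195699, minus strand) is a repressor of MEF2 targets with a known part in cartilage and muscle. Its 267 kb held 3 peaks, none at a promoter of another gene. The promoter peak, chr1:92178429-92184260, was 5832 bp wide, reached 3919 bp upstream and 1912 bp downstream of the TSS of the longest isoform, and was wider than 80.5% of promoter peaks. A peak of 7059 bp lay in intron 2 and one of 4628 bp lay over exons 17 to 18 of 27. The remaining 2 TSSs, further inside the gene, were unmarked, with the nearest peaks 28.1 kb and 9.44 kb away. No further peak was listed within 50 kb of either end of Hdac4.

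Hdac5 (ENSMUSG00000008855.17, chr11:102194432-102230166, minus strand), a close relative of Hdac4, had the narrowest promoter peak of the 7 marked genes. It spanned chr11:102229402-102230772, or 1371 bp, with 606 bp upstream and 764 bp downstream of the TSS, and was wider than 21.1% of promoter peaks. This peak held 4 of the 6 TSSs, and the other 2 lay 10.5 kb and 10.8 kb from a peak. No other peak touched the gene. Hdac5 nevertheless had the most peaks within 50 kb of the 10 genes: 7, above 91.7% of protein-coding genes. Of its 6 flanking peaks, 5 lay at promoters of other genes (Tmem101, Lsm12, BC030867, Asb16 and Tmub2). The nearest, at Lsm12, was 8.64 kb downstream.

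Hdac7 (ENSMUSG00000022475.19, chr15:97792664-97844502, minus strand), known from endothelial cells and thymocytes, was marked only at an inner start. Its 10 isoforms used 9 TSSs in 4 promoter regions. The peak, chr15:97828357-97832226, was 3870 bp wide and held the TSSs at 97831767 and 97831494, inside intron 1 of the longest isoform. It was wider than 70.0% of promoter peaks. The outer TSS of the longest isoform, at 97844502, lay 12.3 kb from this peak, and the inner TSSs further downstream lay 13.5 to 19.4 kb from one. Upstream of the peak no other was listed for 131 kb, a stretch that holds all of Vdr, the vitamin D receptor gene. Downstream, the nearest peak lay 4.10 kb away at the promoter of Slc48a1, and another lay 24.1 kb away at Rapgef3.

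Hdac9, known from heart and skeletal muscle (ENSMUSG00000004698.10, chr12:34047580-34917095, minus strand), was the only one of the 10 genes with no peak at all. Its 8 protein-coding isoforms start at 5 TSSs, which lay 428 to 518 kb from the nearest peak. A further RefSeq start, not printed above and at the 5′ end of the gene, lay 129 kb from one. The whole gene of 870 kb lay in a gap of 1.09 Mb, chr12:33958283-35046450, which was 389th in length of 22952 and held 1 other whole protein-coding gene, Prps1l1. The bounding peaks were 89.3 kb beyond the 3′ end and 129 kb beyond the 5′ end. Among the 230 protein-coding genes of at least 500 kb, 28.7% had a promoter peak and 26.5% had no peak within 50 kb. Among all protein-coding genes, 23.9% had none.

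In class IIb, Hdac6, the cytoplasmic deacetylase of tubulin and X-linked (ENSMUSG00000031161.15, chrX:7930120-7947889, minus strand), had the widest promoter peak of the 7 marked genes. The peak, chrX:7941742-7953900, was 12159 bp, reached 6011 bp upstream and 6147 bp downstream of the TSS over exons 1 to 10 of 29, and held all 3 TSSs. It was wider than 92.7% of all promoter peaks and than 74.7% of the 281 on X, where promoter peaks were wider in general (median 5633 bp, against 2103 bp over all 10778). A peak of 15406 bp overlapped exons 25 to 29 and the promoters of Eras, a Ras gene expressed in embryonic stem cells, and Pcsk1n. In all, peaks covered 43.1% of Hdac6, the highest share of the 10. All 3 flanking peaks lay at promoters of other genes, the nearest 30.1 kb downstream at Pqbp1 and Timm17b and the widest, of 36603 bp, 36.9 kb upstream at Glod5. Gata1, the erythroid transcription factor gene whose TSS lay 16277 bp from that of Hdac6, had no promoter peak.

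Hdac10, a deacetylase of acetylated polyamines (ENSMUSG00000062906.12, chr15:89123307-89128700, minus strand), was the shortest gene at 5.39 kb and had no peak at its 2 TSSs. The nearest peak, chr15:89122354-89123969, began 4.73 kb into the gene. This peak of 1616 bp covered the last 663 bp, with exons 18 to 20 of 20, and lay at the promoter of Tubgcp6, which is transcribed in the same direction and starts 5613 bp from the Hdac10 TSS. All 4 flanking peaks lay at promoters of other genes, the nearest 18.2 kb upstream at Mapk11. All 5 peaks in and near Hdac10 were therefore at promoters of its neighbours.

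Peaks inside the genes but outside their promoters were found at all 4 class I genes and at 3 of 6 class II genes, 7 of 10 in all, against 19.3% of protein-coding genes. Class I had 5 such peaks over 294 kb of gene, or 1.70 per 100 kb. Class II had 4 over 1247 kb, or 0.321 per 100 kb, and protein-coding genes as a whole had 0.676 per 100 kb. The shares of genes are not matched for length: the median protein-coding gene was 17.4 kb long, and the 10 genes here were 5.39 to 870 kb. Hdac9 alone made up most of the class II length and held none. Of the 5 class I peaks, 2 lay at promoters of neighbours (Marcksl1 at Hdac1 and Diaph1 at Hdac3), as did 2 of the 4 class II peaks (at Hdac6 and Hdac10). Over all protein-coding genes, 12.1% of such peaks did. Without these, 3 and 2 peaks were left. Those 5 peaks lay in Hdac2 (2), Hdac8 (1) and Hdac4 (2).

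Peaks within 50 kb of either gene end were found for 3 of 4 class I genes and 4 of 6 class II genes, 7 of 10 in all, against 67.5% of protein-coding genes. The median protein-coding gene had 1 such peak (quartiles 0 and 3). Class I had 6 and class II had 15. Of the 6 around class I genes 1 lay at a promoter of another gene, and of the 15 around class II genes 14 did, against 60.2% of the 41315 pairs of a protein-coding gene and a flanking peak. The only flanking peak of a class II gene away from promoters was 1080 bp wide and 46.2 kb upstream of Hdac5. Genes near each other share such peaks, so the counts were not tested, and whether the classes differ in this was not tested either. The totals depend on the distance taken: within 20 kb class I had 2 and class II had 4, and within 100 kb they had 22 and 30.

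**Figure D3:**
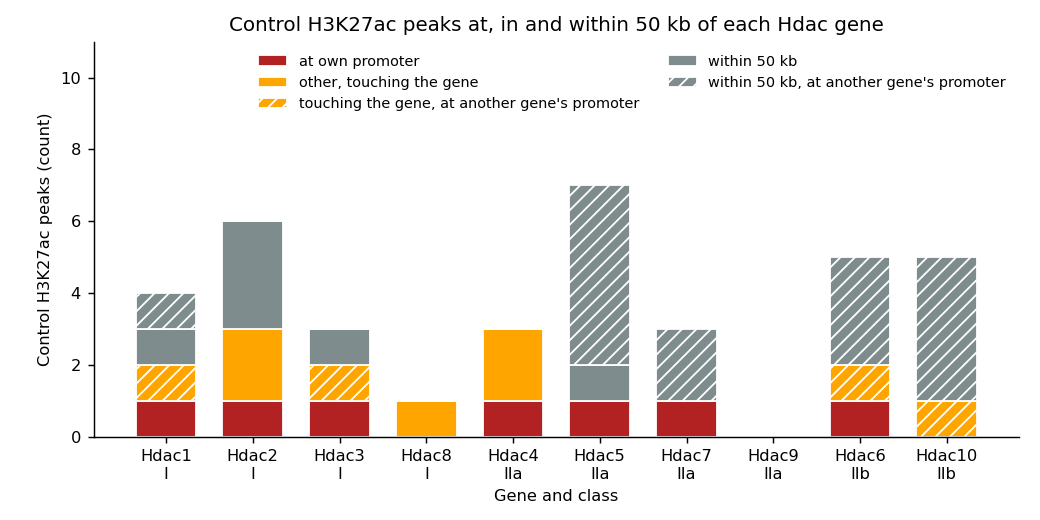
Bars give the number of Control peaks per gene, stacked by place: at the gene's own promoter (red), elsewhere in the gene (orange) and within 50 kb (grey), with hatching where the peak lies at a promoter of another gene. Hdac5 has 7 peaks with 5 hatched, Hdac2 has 6 with none hatched, Hdac10 has 5 with all hatched, and Hdac9 has 0.

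Among the 7 marked genes, the promoter peaks differed widely in width, in an order that cut across the classes. In order, Hdac6 had 12159 bp, Hdac1 6569 bp, Hdac4 5832 bp, Hdac7 3870 bp, Hdac2 1628 bp, Hdac3 1526 bp and Hdac5 1371 bp. The first 4 were above the median of all promoter peaks (2103 bp, quartiles 1496 and 4664 bp) and the last 3 below it. The median was 1628 bp in class I (1526 to 6569 bp) and 4851 bp in class II (1371 to 12159 bp), and the ranges overlap. The paralogs Hdac1 and Hdac2 stood at 83.1% and 29.5% in the distribution, and the paralogs Hdac4 and Hdac5 at 80.5% and 21.1%. Peaks closer than 2 kb were merged by the authors, and the smallest gap in the list was 2001 bp, so a wide peak can hold several summits. A width from a single list has no error, and the differences were not tested.

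**Figure D4:**
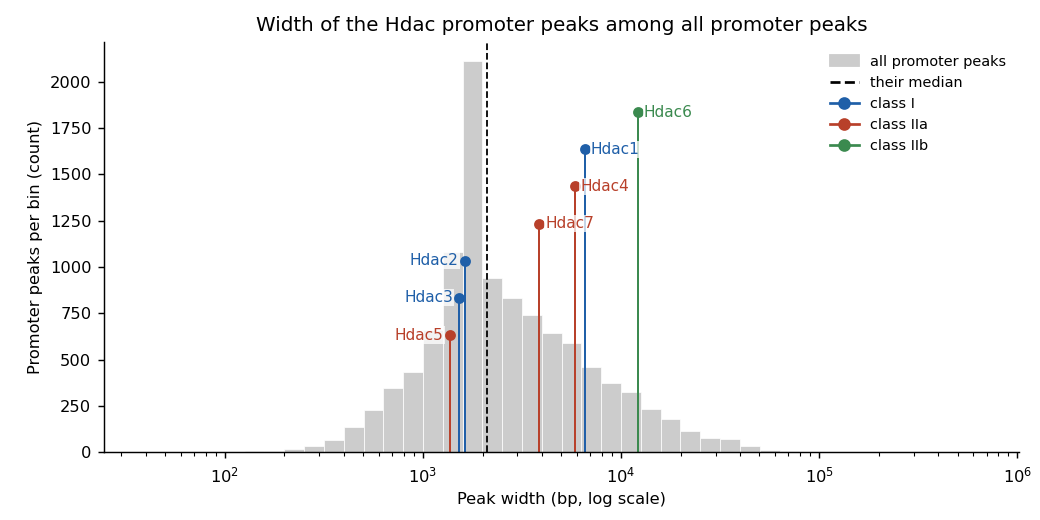
Grey bars count all 10778 promoter peaks by width in bp on a log axis, and the dashed line is their median of 2103 bp. Coloured stems place the 7 Hdac promoter peaks at their widths, and the height of a stem has no meaning. Hdac5, Hdac3 and Hdac2 lie to the left of the median and Hdac7, Hdac4, Hdac1 and Hdac6 to the right.

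The marked and unmarked starts of these genes also differed in base composition, which the choice of genes did not use. The ratio of observed to expected CpG dinucleotides within 1 kb of the TSS was 0.515 to 0.922 (median 0.705) at the 15 marked TSSs and 0.0912 to 0.410 (median 0.253) at the 19 unmarked ones, with no overlap. All protein-coding promoters (longest isoform) showed the same order, with a median of 0.641 with a peak (quartiles 0.522 and 0.748, n = 10674) and 0.227 without one (0.136 and 0.419, n = 11179). GC content itself overlapped, at 54.6 to 65.1% for the marked TSSs and 39.0 to 61.0% for the unmarked ones. The 34 TSSs form 19 separate regions, within which their windows overlap, so this is a description with no test.

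Hdac4, Hdac5 and Hdac7, the genes with both kinds of start, showed this order within each gene. The marked TSSs of Hdac4 had ratios of 0.918 and 0.922, and its 2 inner, unmarked TSSs had 0.158 and 0.0912. Hdac5 had 0.705 to 0.712 at its 4 marked TSSs and 0.253 and 0.258 at the unmarked ones. Hdac7 had 0.661 and 0.646 at the inner, marked TSSs and 0.261 at the outer start of the longest isoform. All 5 TSSs of Hdac9 lay between 0.197 and 0.279. Hdac8 at 0.410 and Hdac10 at 0.403 had the highest ratios at the longest isoform's TSS among the unmarked genes. Between 0.4 and 0.6, 65.1% of protein-coding promoters carried a peak and 4 of 6 TSSs of the deacetylases did. From 0.2 to 0.4 the share was 21.1%, and 0 of 14 did. These shares take only the longest isoform of each gene, while the TSS counts take every annotated start, many with overlapping windows. All 3 TSSs of Hdac6 are among the 4 marked ones.

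**Figure D5:**
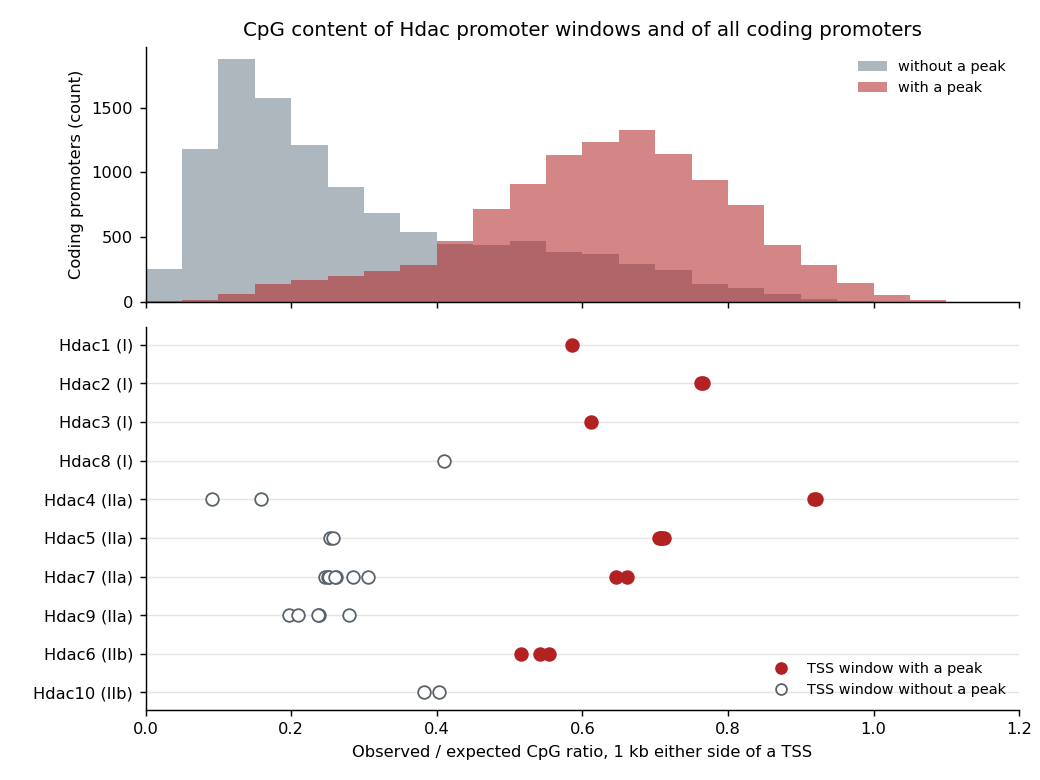
The upper panel counts protein-coding promoters by their observed to expected CpG ratio within 1 kb of the TSS, with a peak (red) and without (grey). The lower panel shows each annotated TSS of the 10 Hdac genes on the same axis, filled where a peak overlaps the window. All 15 filled points lie at 0.515 or above and all 19 open points at 0.410 or below.

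The partners of these enzymes were mostly marked. Of the genes for subunits that carry class I enzymes, 32 of 34 (94.1%) had a promoter peak: 10 of 10 for SIN3, 9 of 11 for NuRD, 4 of 4 for CoREST, 5 of 5 for the NCoR and SMRT complexes of Hdac3, and 4 of 4 for MiDAC and MIER proteins. The exceptions were the NuRD genes Chd3 and Rbbp4, whose longest isoforms start 25.2 kb and 17.2 kb from a peak. Of the class IIa partners, 16 of 20 (80.0%) were marked. These were 3 of 4 MEF2 factors (not Mef2c, 226 kb from a peak), 7 of 9 kinases (not Camk4 at 101 kb or Prkd1 at 698 kb) and 6 of 7 genes of the 14-3-3 proteins (not Sfn at 7.98 kb). Among the other deacetylases, all sirtuin genes Sirt1 to Sirt7 were marked, 7 of 8 with Hdac11, the single class IV enzyme, whose TSS lay 23.4 kb from a peak. The background for these counts is the 51.0% of protein-coding genes above, and no test was made over the lists.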

How the data were processed

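H3K27ac ChIP-seq of 6 mESC samples (Control, NVP-2 and ActD, 2 each) was reported, and the Control peak list was used. Its values are positions in bp, another unit than counts or signal. The authors made the deposited list by trimming with cutadapt, aligning with BWA to mm10 and human sequence together, removing duplicates with Picard 2.9.1 and low-quality alignments with SAMtools 1.4, calling peaks with LanceOtron, merging within 2 kb, and filtering by height and by distance to ATAC-seq summits. A weak peak can be lost to these filters.

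Here peaks were overlapped (at least 1 bp) with GENCODE M21 on GRCm38, the same build, though the study names a later release. There were 27706 protein-coding and lincRNA genes with 67283 transcripts, and no peak ran past a chromosome end. Peaks counted first as promoter, then gene body, then flank. A peak's width percentile is taken among promoter peaks. CpG ratio is CpGs × length / (C × G). Shares have 95% Wilson intervals, their difference a Newcombe interval and a Fisher exact test. All 10 genes are named with their promoter peaks, widest inner peak and nearest flanking peak, with further peaks where these make up a count, and unmarked partners. Prps1l1, Vdr, Marcks, Lck and Gata1 were named after their values were seen. The genes and lists were chosen with earlier results of these data known. Entries of these genes in the RefSeq promoter table were matched by symbol, and any on chromosome 18, where Hdac3 lies, were left out. This left 7 genes, and Hdac1, Hdac3 and Hdac10 are named only. The overlap code was tested on simulated peaks. Python 3.11.15, numpy 2.4.6, pandas 2.3.3, scipy 1.17.1, statsmodels 0.14.6 and matplotlib 3.10.9 were used.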

Additional observations from a re-analysis of the deposited data

How the results depend on the processing

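No paired analysis was possible because the list pools both Control replicates, and for the same reason no replicate could be left out. The difference between class I and class II in promoter marking was 8.33 to 25.0 percentage points, with p of 0.571 to 1.0, under the 7 alternatives whose test could pass 0.05. With autosomal genes only (40.0 points) and class IIa only (0.0) the smallest p the test can give is 0.107 and 0.429, so neither bears on stability. Of 70 values for single genes, 1 moved: Hdac7 was unmarked with the longest isoform only, which also took the median class II promoter peak from 4851 to 5832 bp. The share of all genes with a marked promoter was 43.6%, and was 44.6% within 2 kb of a TSS, 40.4% where a peak had to hold the TSS, 41.7% with the longest isoform, 44.2% with isoforms of any type, 39.0% with peaks of at least 1 kb, 42.2% with an overlap of at least 500 bp and 51.0% for protein-coding genes. Peaks in class I genes fell from 5 to 3 and in class II genes from 4 to 2 when the midpoint had to lie in the gene. They fell to the same 3 and 2 without peaks at promoters of other genes, an alternative added after seeing the data. Flanking peaks of class I numbered 2 within 20 kb and 22 within 100 kb, against 6. Flanking peaks of class II numbered 4 and 30, against 15, and 1 without peaks at promoters of other genes. Counted within 50 kb of the TSS of the longest isoform, flanking peaks numbered 5 for class I and 10 for class II. Since the list gives neither depth nor heights, an unmarked promoter means only that no peak is listed there.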
